A study of Homo sapiens with 24 samples.

Results

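The experiment described here was the KO of the DNA-binding domain (DBD) of MSTRG.34636.7 in HCT116, a human colorectal carcinoma cell line, compared with the wild-type libraries that carry the same numbers, 1A to 3A (WT A). Its members were taken by sample label and are 6 of the 24 RNA-seq libraries of the series, 3 of the KO and 3 of WT A, and the 3 libraries of the second HCT116 wild-type set (WT B) were used to see how far wild-type cells differ. The KO cells had a short stretch of genomic DNA containing the DBD removed with CRISPR/Cas9, and both wild-type sets were unedited HCT116 with no treatment in their labels. A DBD is the part of a long noncoding RNA (lncRNA) predicted to pair with DNA, and the question was which genes change their expression once it is gone. The sources used here do not say whether the KO cells were 1 clone or whether libraries of a group came from separate cultures, so p-values measure the spread between these libraries, which may be technical. MSTRG.34636.7 is an assembly name with no row in the gene table, so the counts could not check the deletion, and no source used here pairs this name with the deleted sequences.

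A lncRNA that pairs with DNA can carry chromatin-modifying enzymes to a promoter, where they silence or activate the gene. HCT116 cells carry a stabilised beta-catenin, so that Wnt target genes are active without added ligand. Replication-dependent histone genes are transcribed in S phase to package new DNA, and their mRNAs end in a stem-loop instead of a poly(A) tail. The libraries were made from total RNA after removal of ribosomal RNA, so that such mRNAs were retained.

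The KO libraries held 91653811, 59661978 and 93799017 counts and the WT A libraries 53196321, 49084235 and 102261914. Values below are CPM, the counts scaled to library size and by TMM over the KO, WT A and WT B libraries, in the order of libraries 1, 2 and 3. The WT A libraries differed more from each other than those of the other groups. Over 13894 autosomal and X genes whose average log2 CPM was 1 or more, the median SD of log2(CPM + 0.5) was 0.259 within WT A, 0.0833 within the KO and 0.0798 within WT B, and 12.2% of the genes had more than a 2-fold range within WT A against 2.45% within the KO and 2.53% within WT B. The epithelial markers EPCAM, CDH1, KRT8, KRT18 and KRT19 were at 96.2 CPM or more in all 9 libraries, CDX2 was at 13.4 to 24.6 CPM, and VIL1 and CDH17 were at 0.481 to 1.43 CPM. CEACAM5 was at 0 in 8 of the 9 libraries. The summed lung markers were at 8.12 to 9.07 CPM in the KO, 4.12 to 6.90 in WT A and 12 to 13.4 in WT B. The endothelial markers were at 4.28 to 5.92, 2.39 to 4.04 and 2.51 to 3.40 CPM and the blood markers at 1.90 to 2.45, 0.886 to 1.85 and 0.795 to 1.12 CPM, in the same order. These 3 sums were higher in every KO library than in every WT A library. The fibroblast markers were at 35.1 to 41.8, 32.6 to 56.8 and 28.8 to 30.5 CPM, mostly COL1A1, with DCN and LUM at 0 in every library. The part of these signals in the results was not tested.

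Of 20699 autosomal and X genes tested, 302 (1.46%) were called at FDR < 0.1 and |log2(fold change)| > 1, and 3332 had an unadjusted p below 0.05 (edgeR quasi-likelihood test). Of these, 165 rose (0.797% of the genes tested) and 137 fell (0.662%). The median log2(fold change) of all genes tested was 0.0, and the medians of single chromosomes lay between -0.08 and 0.05. In 261 of the called genes the 3 KO libraries were also all above or all below the 6 wild-type libraries, which held for 16.7% of all genes tested, and this count is a description because a called gene already stood apart from WT A. In the comparison of the wild-type sets, WT A against WT B, 1430 of 19853 genes (7.2%) were called. Leaving out 1 KO library left 61 to 73 called genes, and leaving out 1 WT A library left 247 to 564, the highest count without WT A library 2. In all 6 of these fits 49 of the 302 genes were called, and none of the 302 changed sign in a fit in which it was tested.

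The replication-dependent histone genes fell together. Of the 66 members 48 were tested, 14 fell and none rose, against 0.662% of all genes that fell, and 46 of the 48 had a log2(fold change) below 0, with a median of -0.89. Without the fold-change threshold, 34 of the 48 were lower at FDR < 0.1, against 1.14% of all genes. The summed level of all members was 3976, 3818 and 4271 CPM in the KO, 8657, 7342 and 7601 in WT A and 7143, 7850 and 7456 in WT B. The KO sums were below all 6 wild-type sums, and the mean of WT A was 1.96 times and that of WT B 1.86 times the KO mean. For WT A against WT B the median was -0.05 and 1 member was called, with single members on both sides of 0, such as H3C12 at -0.87 and H2BC21 at 0.80. The share of counts from mitochondrial genes moved with the same libraries, at 1.39 to 1.97% in the KO and 2.09 to 3.24% in the 6 wild-type libraries. The snoRNAs, which also lack a poly(A) tail, were below 0 in 118 of 151 genes tested, with a median of -0.36 and none called, and with a median of -0.38 for WT A against WT B. The part of either in the histone result was not tested.

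All 5 histone classes were low. The tested H2A genes, whose products form dimers with H2B in the nucleosome, summed to 1295, 1229 and 1301 CPM in the KO and 2811, 2364 and 2584 in WT A, and 6 of 12 fell. The H2B genes summed to 739, 687 and 878 CPM against 1792, 1455 and 1447, and 4 of 12 fell. The H3 genes summed to 824, 785 and 835 CPM against 1634, 1570 and 1587, and 3 of 9 fell. The H4 genes, which pair with H3, summed to 749, 743 and 863 CPM against 1385, 1349 and 1357, yet none of the 11 was called, with a median of -0.83. Of the linker histones, 1 of 4 fell, H1-2 with 158, 159 and 184 CPM against 457, 281 and 297. The KO and wild-type sums did not overlap in any class, WT B included.

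Single genes followed the same order. H2AC17 (chr6:27892699-27893185, minus strand) was at 137, 130 and 145 CPM in the KO, 317, 307 and 345 in WT A and 255, 277 and 278 in WT B, a log2(fold change) of -1.22 ± 0.123 (SE, n = 3 per group, edgeR adjusted p = 0.00593). H2AC12 (chr6:27147106-27147562) was at 68.4, 64.9 and 76.5 CPM against 133, 137 and 159 in WT A and changed by -1.02 ± 0.132 (edgeR adjusted p = 0.0181). H3C14 and H3C15 at chromosome 1 changed by -1.07 and -1.06. H3C14 was at 215, 204 and 209 CPM against 500, 379 and 442 in WT A. These 2 genes are near-identical copies, as are many histone genes, so the division of reads between them is uncertain and the sums over a class are firmer than the single values. Among the 48 genes, the KO was below all 6 wild-type libraries in 37. Over all genes tested, the KO was above or below all 6 in 16.7%. Without KO library 1 or 2 a single histone gene was called, and without KO library 3 or WT A library 1 there were 7, and the 14 stayed below 0.

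**Figure D1:**
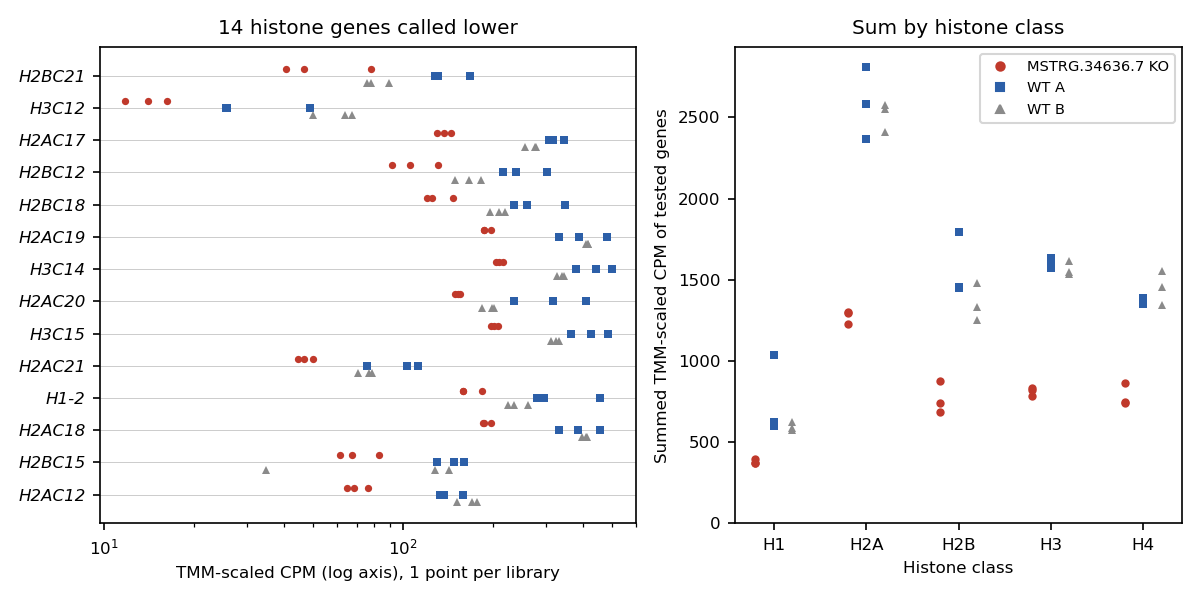
Levels of replication-dependent histone genes. Left, TMM-scaled CPM (log axis) of the 14 genes called lower, 1 point per library; right, the sum over tested genes of each histone class, on an axis that starts at 0. The KO points lie below the WT A points in every row and class, and below WT B in all but H2BC21 and H2BC15.

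The upstream sequences of 4 of the lowered genes are shown because the histone genes moved together. Of the exact strings searched they hold different sets, H1-2 having CCAAT alone, and variant forms of these elements or other elements were not searched. The sequences are the 250 bases before the RefSeq start of each gene (GRCh38.p14, minus strand, 5′ to 3′). Capitals mark CCAAT (or ATTGG), ATGCAAAT (or ATTTGCAT), the octamer, and TATAAA (or TTTATA), searched on both strands, with overlaps kept.
H2AC17, chr6:27893186-27893435: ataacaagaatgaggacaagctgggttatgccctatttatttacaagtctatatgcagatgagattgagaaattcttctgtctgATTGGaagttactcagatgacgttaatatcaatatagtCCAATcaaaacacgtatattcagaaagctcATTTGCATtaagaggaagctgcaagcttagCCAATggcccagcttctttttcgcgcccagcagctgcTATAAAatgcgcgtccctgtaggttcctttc
H2BC12, chr6:27146859-27147108: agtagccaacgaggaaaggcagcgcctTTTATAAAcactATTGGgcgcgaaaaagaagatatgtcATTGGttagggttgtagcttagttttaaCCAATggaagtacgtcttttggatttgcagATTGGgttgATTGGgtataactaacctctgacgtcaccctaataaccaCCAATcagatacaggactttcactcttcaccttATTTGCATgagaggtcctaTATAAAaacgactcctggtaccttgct
H3C14, chr1:149841209-149841458: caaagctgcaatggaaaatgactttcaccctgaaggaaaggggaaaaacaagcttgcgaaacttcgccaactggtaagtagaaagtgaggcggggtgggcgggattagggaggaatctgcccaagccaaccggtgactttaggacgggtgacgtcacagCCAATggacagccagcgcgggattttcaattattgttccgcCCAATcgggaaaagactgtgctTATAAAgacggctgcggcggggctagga
H1-2, chr6:26056471-26056720: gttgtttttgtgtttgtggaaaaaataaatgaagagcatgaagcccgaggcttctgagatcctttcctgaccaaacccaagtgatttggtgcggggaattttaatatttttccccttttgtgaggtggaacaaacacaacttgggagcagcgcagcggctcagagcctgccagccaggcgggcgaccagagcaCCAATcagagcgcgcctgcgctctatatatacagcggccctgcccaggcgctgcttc

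H2BC12 was at 105, 91.8 and 131 CPM in the KO, 303, 215 and 239 in WT A and 149, 182 and 166 in WT B, and, like H1-2, was chosen for printing after its values were seen. CCAAT was present in 36 of the 44 tested histone genes with a promoter sequence (81.8%), the octamer in 18 (40.9%) and TATAAA in 32 (72.7%). Over all 13367 tested genes with a promoter sequence the shares were 34.6%, 1.5% and 6.84%. The octamer was in 9 of 12 H2B promoters, the class in which it is best known, and in 8 of 11 H2A promoters. These counts need not be separate, since the stretch printed for H2BC12 reaches the start of H2AC12 on the opposite strand (chr6:27147106). A match of letters is a description and not evidence of binding.

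Genes of DNA replication, many of which are transcribed around S phase, differed by less. In 29 of 30 the log2(fold change) was below 0, with a median of -0.55, but none passed both thresholds and 6 were lower at FDR < 0.1, against 1.14% of all genes. RFC4, a subunit of the clamp loader of the replication fork, had the smallest p and was at 36.9, 36.0 and 36.5 CPM in the KO, 59.1, 56.5 and 66.3 in WT A and 59.5, 60.5 and 60.4 in WT B (log2(fold change) -0.72). Here the wild-type sets also differed, with a median of -0.32 for WT A against WT B. The mitosis genes had a median of -0.22 and none called. Since these are bulk libraries, fewer cells in S phase and less RNA per cell cannot be told apart.

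The named genes that fell most included genes close to extinction in the KO. PRKAA2 (chr1:56645314-56715335), the alpha-2 catalytic subunit of AMP-activated protein kinase, was at 0.182, 0.197 and 0.303 CPM in the KO, 17.7, 13.4 and 11.9 in WT A and 8.92, 11.7 and 11.1 in WT B, a change of -5.95 ± 0.311 on the log2 scale (SE, n = 3 per group, edgeR adjusted p = 0.00103). Both wild-type sets were far above every KO library. SLC10A7 (chr4:146253975-146522372), a membrane protein of the bile acid transporter family, was at 0.633, 0.443 and 0.520 CPM against 13.3, 9.07 and 8.84 in WT A and changed by -4.27. GXYLT2, a xylosyltransferase that extends sugars on Notch receptors, was at 0.762, 0.738 and 0.596 CPM against 9.86, 9.66 and 14.3 and changed by -4.00. KCTD12, an auxiliary subunit of the GABA-B receptor, was at 0.472, 0.344 and 0.585 CPM against 4.32, 5.77 and 5.11. These genes had WT B levels of 4.28 CPM or more, again above the KO.

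The zinc finger gene ZNF426 fell from 9.88, 4.78 and 6.78 CPM in WT A to 0.590, 0.804 and 0.628 in the KO, with WT B at 5.26 to 5.67. CCDC69 had little spread within groups, at 1.98, 1.84 and 1.56 CPM against 12.3, 13.2 and 12.6 in WT A and 10.3 to 12.7 in WT B (log2(fold change) -2.81 ± 0.190, edgeR adjusted p = 0.00111). FBLIM1, which couples filamin to cell adhesions, changed by -2.90, from 10.5, 4.76 and 7.63 CPM to 1.35, 0.837 and 0.856. CALD1, the actin-binding protein caldesmon, was at 0.730, 0.213 and 0.108 CPM in the KO and 15.9, 11.2 and 18.2 in WT A, but at 61.9 to 70.3 in WT B, so that its wild-type sets also differed from each other (WT A against WT B, -2.14 on the log2 scale).

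In 2 of these genes the WT A libraries were far from each other. KLK5, a secreted serine protease, was at 12.6, 1.32 and 11.3 CPM in WT A and 0.193, 0.262 and 0.195 in the KO. LURAP1L was at 46.6, 4.23 and 5.10 CPM in WT A and 0.386, 0.689 and 0.585 in the KO, with WT B at 2.40 to 3.64. The KO was lowest in both, but the size of the change of LURAP1L (-5.08) rests in part on WT A library 1, and against WT B it was -2.38.

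Of the 12 named genes that rose most, 8 were above both wild-type sets. SCN3B (chr11:123629187-123655244), a beta subunit of voltage-gated sodium channels, was at 10.5, 11 and 10.6 CPM in the KO, 1.04, 1.16 and 1.32 in WT A and 0.880 to 1.41 in WT B (log2(fold change) 3.20 ± 0.201, n = 3 per group, edgeR adjusted p = 0.00103). ZBED2 (chr3:111592900-111595346), a zinc finger transcription factor, had the highest KO level of the 12, with 53.3, 52.4 and 55.9 CPM against 13, 14.3 and 12.4 in WT A and 12.5 to 13.7 in WT B, and changed by 2.04 ± 0.127 (edgeR adjusted p = 0.00103). ATOH8, a basic helix-loop-helix factor, was at 10, 8.09 and 7.67 CPM against 1.13, 0.748 and 1.2. In all 3 the replicates of each group lay close together and no group overlapped the KO.

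TCL6, a lncRNA gene at chromosome 14, was at 12.1, 9.65 and 11.7 CPM against 2.05, 1.38 and 1.80 in WT A. PADI3, which converts arginine to citrulline in proteins, was at 10.7, 11.5 and 9.45 CPM against 2.00, 2.87 and 1.72. SEC14L5 was at 3.68, 4.26 and 3.5 CPM against 0.679, 0.965 and 0.989. The lncRNA LINC00299 changed by 2.08, with WT A at 0.999, 3.48 and 1.40 CPM. ERBB4, a receptor of the EGF receptor family that binds neuregulins, changed by 1.98 at low levels, from 0.528, 1.18 and 0.694 CPM to 2.98, 3.79 and 2.60.

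The other 4 of these 12 were not above WT B. RBM14, an RNA-binding coactivator, rose from 1.75, 5.81 and 1.83 CPM in WT A to 15.5, 24.6 and 26.2 in the KO, but was at 161 to 174 in WT B. HBE1, the embryonic globin gene, was at 4.03, 8.94 and 8.78 CPM in the KO and 45.5 to 47.1 in WT B. APOOL, a mitochondrial inner-membrane protein, ranged from 1.44 to 34.4 CPM within the KO and was at 53.2 to 59.7 in WT B against at most 0.566 in WT A. NBPF14, of a family of near-identical copies whose reads may be misassigned, was at 8.48, 7.61 and 9.15 CPM in the KO and 3.81, 5.99 and 10.7 in WT B. With WT B as the control RBM14, HBE1 and APOOL changed by -2.93, -2.68 and -2.03, so their direction rests on which wild-type set is used.

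**Figure D2:**
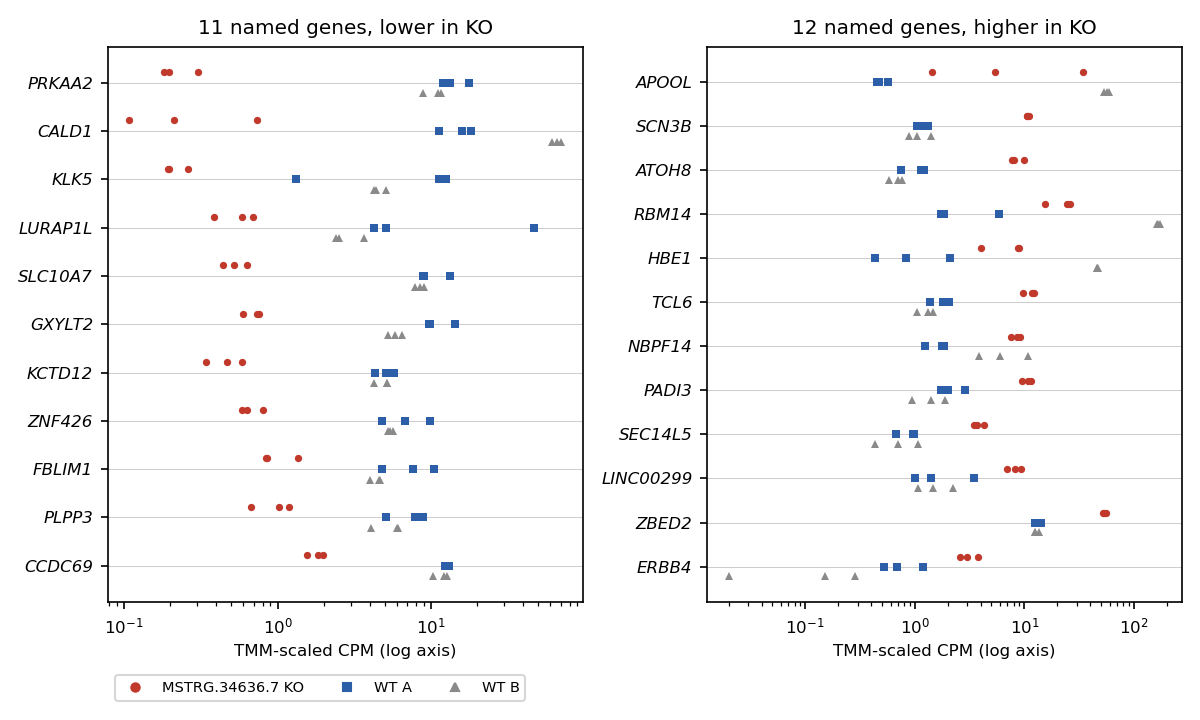
TMM-scaled CPM (log axis) of 11 of the named genes with the most negative and the 12 with the largest log2(fold change), 1 point per library. The KO points are left of both wild-type sets in the left panel; in the right panel RBM14, HBE1 and APOOL lie between WT A and WT B, and a library of ERBB4 at 0 is drawn at 0.02 CPM.

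Beside those, VGF and GRIN2B were singled out after their values were seen, as abundant genes with little spread. VGF, which encodes a neurosecretory peptide precursor, was at 317, 321 and 338 CPM in the KO, 76.6 to 108 in WT A and 44.1, 44.4 and 40.6 in WT B. GRIN2B, an NMDA receptor subunit, was at 215, 222 and 222 CPM, 66.1, 74.3 and 71.2 in WT A and 116, 115 and 118 in WT B. The KO was above every wild-type library in both, and the wild-type sets differed from each other in opposite directions.

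Of the called genes with a name, 10 had 0 counts in every KO library and 5 had 0 counts in every WT A library. Such genes passed the filter on low counts only through the group in which they were detected, so their direction was set beforehand. Their numbers are a description, given without the share over all genes. STXBP6, whose product binds proteins of vesicle fusion, had 65, 27 and 75 counts in WT A and 0 in the KO. That is at least 21.8-fold lower against 3 counts in each library. FGF14, an intracellular partner of sodium channels, had 14, 46 and 50 counts in WT A, at least 14.7-fold, but WT B library 2 was at 0 as well. KCNH8, a voltage-gated potassium channel, had 45, 12 and 31 counts, at least 12.1-fold. These bounds account for counting error alone, since PCR copies were not told apart by molecular identifiers.

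Some of the lowered genes lie next to each other. PLPP3 (chr1:56494761-56645301), a lipid phosphate phosphatase of the plasma membrane, is the neighbour of PRKAA2 on the opposite strand, with 12 bases between the annotated ends in GENCODE and 65751 between the RefSeq starts. It was at 1.02, 0.673 and 1.19 CPM in the KO, 7.86, 5.06 and 8.85 in WT A and 4.05, 6.00 and 6.12 in WT B, a change of -2.90 ± 0.320 (edgeR adjusted p = 0.00939). Within 2.5 Mb of the pair 31 genes were tested and 5 called, against 1.46% of all genes, in a stretch centred on genes already called. Among the 5 were this pair and MROH7, which rose (log2(fold change) 1.40). The joint entry MROH7-TTC4 was at 1.2 and TTC4 at -0.57, neither called, and reads may be divided among these entries. MROH7-TTC4 differed by 2.7 on the log2 scale for WT A against WT B. TTC22, which was noticed after the values were seen, fell from 2.19, 4.67 and 3.70 CPM to 0.0644, 0.131 and 0.152. The genes of the stretch that were not called and whose average log2 CPM was 1 or more lay between -1.46 and 1.2. USP24, a deubiquitinase, was at 144, 147 and 146 CPM against 165, 164 and 153 in WT A, and OMA1, a mitochondrial protease, at 22.4, 21.3 and 24.9 against 19.6, 16.6 and 26.2. Over the 22 genes of the stretch whose average log2 CPM was 1 or more, the median was 0.04.

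The genes of the pregnancy-specific glycoproteins (PSG) at chromosome 19 included 5 that rose, a pattern noticed after the values were seen and therefore given without a test of the group. PSG genes encode secreted immunoglobulin-like proteins of the placenta and lie beside related CEACAM genes. Of the 11 PSG genes, 5 rose (PSG4, PSG7, PSG8, PSG9 and PSG10P), against 0.797% of all genes. The other 6 did not pass, among them PSG1 at 1.2 and PSG11 at 3.36 on the log2 scale. All 11 passed the filter on low counts here and 6 did in the comparison of the wild-type sets, so that the others, with 3 of the 5 calls, were tested through the KO libraries in which they were high, and their count and signs are a description. The 6 differed between the wild-type sets without any KO, with a median of 1.19 for WT A against WT B, 1 called higher and none lower. PSG8 (chr19:42752686-42765678) was at 1.41, 2.36 and 1.30 CPM in the KO, 0.434, 0.531 and 0.479 in WT A and 0.151, 0.352 and 0.199 in WT B. PSG4 (chr19:43192702-43207299) was at 1.27, 1.03 and 1.03 CPM against 0.113, 0.0984 and 0.286 in WT A. The antisense transcript PSG8-AS1 was at 0.891, 0.869 and 0.986 CPM against 0.189, 0.236 and 0.194. The levels stayed low, the genes are similar in sequence so that reads may be shared among them, 3 were called when at least 10 counts were required in every library, and with any 1 KO library left out none was. Weakly expressed neighbours that are no PSG genes lay above 0 as well, with CEACAMP5 at 1.59 and called, and CEACAMP1, CEACAM8 and CEACAMP2 at 1.35, 1.05 and 1.04 and not called. For WT A against WT B these neighbours were at 0.86, 1.78, 1.25 and 0.52, in the same order.

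A second run of neighbours on the same chromosome, also noticed afterwards, held DBP, a circadian transcription factor, the fucosyltransferase pseudogene SEC1P and the netrin-family gene NTN5. DBP (chr19:48630030-48637379) was at 108, 110 and 109 CPM in the KO, 35.9, 43.6 and 34.4 in WT A and 45.7, 45.4 and 41.5 in WT B. NTN5 was at 13.9, 13.1 and 12.1 CPM against 5.15, 4.8 and 4.76, and SEC1P at 5.59, 4.94 and 5.57 against 1.60, 2.38 and 1.80. The changes were 1.53, 1.42 and 1.49 on the log2 scale. CA11 between them was at 32.6, 30.6 and 37.9 CPM against 16.9, 16.3 and 19.4, a change of 0.95 that missed the fold-change threshold. SEC1P overlaps both CA11 and NTN5 on the opposite strand, and the strand setting of the counting is not given in the sources used here, so that their reads may not be fully separated. In the stretch around DBP and NTN5, chosen for genes already called, 24 genes were tested and 3 called, against 1.46% of all genes. Over the 18 whose average log2 CPM was 1 or more the median was 0.25, and the uncalled ones lay between -1.1 and 2.24.

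**Figure D3:**
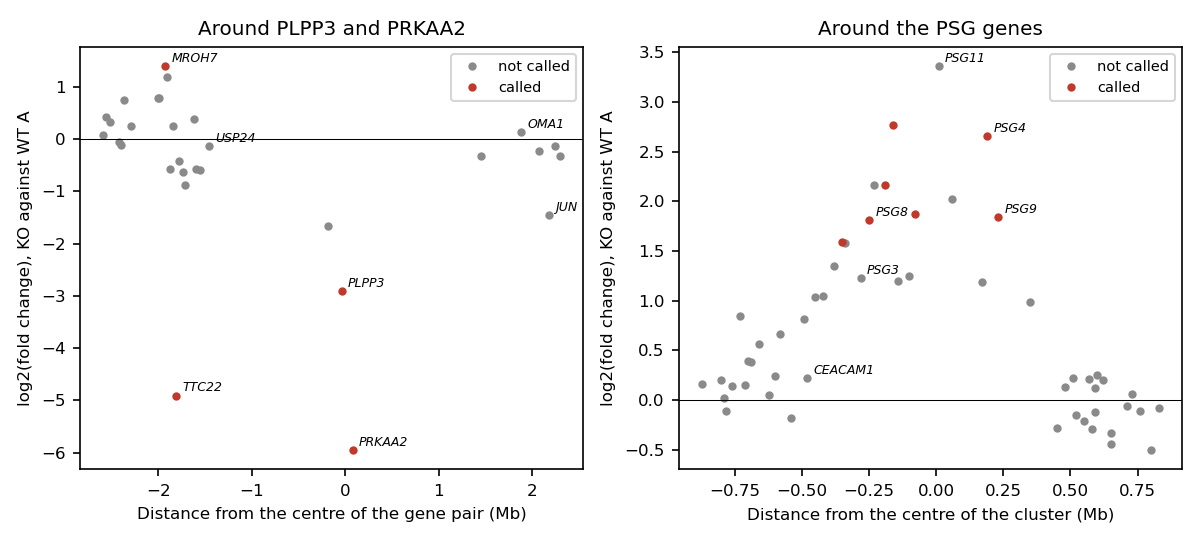
log2(fold change) of KO against WT A for tested genes by distance (Mb) from the centre of PLPP3 and PRKAA2 (left) and of the PSG genes (right), with genes called in red; genes at 0 counts in WT A and 1 gene not reported here are left out. On the left TTC22, PLPP3 and PRKAA2, called lower, and MROH7, called higher, stand among genes that were not called. On the right the 11 PSG genes and weakly expressed CEACAM genes and pseudogenes beside them are above 0, and the 28 better expressed genes of the stretch, none called, have a median of 0.12.

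Of 45 tested genes downstream of RAS and ERK, 6 fell and 1 rose against WT A, where 0.662% of all genes fell and 0.797% rose, and the median was -0.23. The feedback phosphatases and inhibitors among them had a median of 0.06, with 7 of 12 above 0. FOSL1 (chr11:65892049-65900573), an AP-1 subunit that accumulates with sustained ERK activity, was at 18.5, 18.5 and 22.9 CPM in the KO, 62.1, 48.3 and 73.3 in WT A and 31.3, 32.2 and 28.7 in WT B (log2(fold change) -1.61 ± 0.186, edgeR adjusted p = 0.0110). ATF3, a stress-induced factor, was at 14.7, 15.3 and 15.4 CPM, 53.9, 24.9 and 35.7 in WT A and 17.4, 16.5 and 15.9 in WT B. DUSP5, a phosphatase that switches off nuclear ERK, was at 115, 121 and 117 CPM, 310, 256 and 167 in WT A and 95.0, 95.2 and 98.4 in WT B. FOSL1 was low against both sets, ATF3 stood close to WT B, and DUSP5 lay between the sets.

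Among the ligands and other targets, EPHA4, an ephrin receptor, was at 1.97, 2.26 and 1.82 CPM in the KO, 19.3, 5.18 and 6.94 in WT A and 8.39 to 10.3 in WT B. HBEGF, an EGF receptor ligand, was at 5.63, 6.79 and 6.00 CPM, 19.2, 10 and 12.6 in WT A and 9.13 to 10.9 in WT B. ETV1, an ETS factor, rose from 24.1, 43.8 and 22.5 CPM in WT A to 76.9, 76.7 and 83.7, with WT B at 22.8 to 24.1. In these 3 the KO was outside both wild-type sets. Leaving out KO library 1 or 2 left 1 gene of the list called, KO library 3 left 2 and WT A library 1 left 4. With WT B as control, 5 genes rose and 2 fell. The list itself differed between wild-type sets without any KO, with 10 genes called higher in WT A, none lower and a median of 0.53.

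The Hippo-YAP targets, which report on the YAP coactivator, held 3 genes that fell of 20 tested, against 0.662% of all genes, and none that rose, with a median of -0.29. AMOTL2, a negative regulator of YAP, was at 51.5, 50.7 and 51.5 CPM in the KO, 139, 110 and 104 in WT A and 83.3 to 94.3 in WT B (log2(fold change) -1.19 ± 0.143, edgeR adjusted p = 0.0124). The matricellular protein CCN1 was at 14.1, 14.8 and 15 CPM, 36.7, 29.8 and 40.8 in WT A and 11.3, 11.5 and 10.8 in WT B. CCN2 was at 1.56, 1.95 and 2.39 CPM, 7.22, 6.69 and 4.87 in WT A and 1.87 to 3.04 in WT B. AMOTL2 was below both sets, whereas CCN1 in the KO was above WT B and CCN2 overlapped it. Without KO library 1 or 2 none of the 3 was called. CCN1 was also among the 6 RAS-ERK genes that fell. With WT B as control, 1 gene of the Hippo-YAP list rose and 2 fell, with a median of 0.18. The list differed between wild-type sets without any KO, with 5 genes called higher in WT A, none lower and a median of 0.36.

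Metallothioneins, small proteins that bind zinc and copper, fell for MT1E and MT2A, 2 of 7 genes tested in a list that includes zinc transporters, against 0.662% of all genes. MT1E was at 127, 130 and 144 CPM in the KO, 350, 268 and 343 in WT A and 171, 199 and 194 in WT B. MT2A was at 115, 111 and 132 CPM, 287, 238 and 247 in WT A and 114, 137 and 141 in WT B, so that WT A was apart from it and WT B was not. The zinc importer SLC39A10 rose from 45.6, 62.3 and 90.4 CPM in WT A to 154, 159 and 164, with WT B at 69.4 to 72.6.

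**Figure D4:**
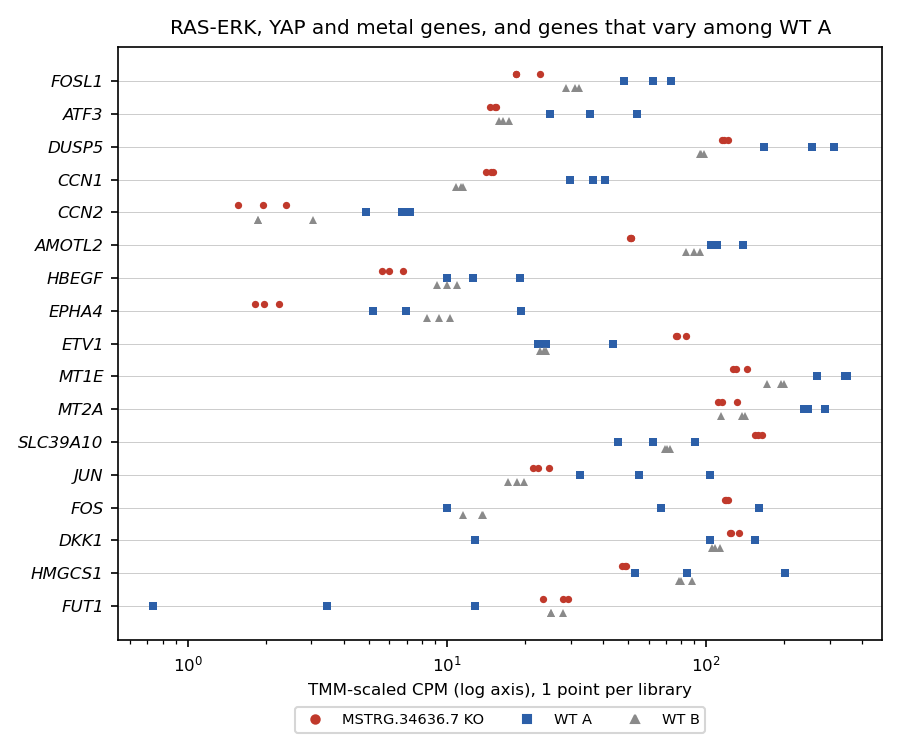
TMM-scaled CPM (log axis) of genes of the RAS-ERK, YAP and metal lists, and of JUN, FOS, DKK1, HMGCS1 and FUT1, chosen after their values were seen or for their place near a stated deletion, 1 point per library. The WT A points (squares) spread widely for JUN, FOS, DKK1, HMGCS1 and FUT1 while the points within the KO and within WT B lie close to each other, and in CCN1, CCN2 and MT2A the KO lies near WT B.

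Of 48 Wnt genes tested 3 rose, against 0.797% of all genes, and none fell, with a median of 0.19. Between the wild-type sets the median was 0.06, and of 47 genes 2 were called higher in WT A and 2 lower. Of all genes, 7.2% were called in that comparison. NOTUM, a secreted enzyme that inactivates Wnt ligands and is itself a Wnt target, was at 35.9, 35.9 and 35.7 CPM in the KO, 18.4, 12.7 and 15.8 in WT A and 10.3, 12.4 and 9.99 in WT B (log2(fold change) 1.2 ± 0.164, edgeR adjusted p = 0.0211). The ligands WNT6 and WNT3A changed by 1.55 and 1.1. WNT6 was at 8.97, 9.50 and 7.04 CPM against 2.85, 3.94 and 2.05, and WNT3A at 14.4, 16.4 and 15.4 against 6.45, 5.35 and 9.83. WNT6 was also called higher in WT A than in WT B (1.23 on the log2 scale), with WT B at 0.962, 1.52 and 1.24 CPM. In the TGF-beta and BMP list 1 of 40 rose, ID3, a BMP target that blocks basic helix-loop-helix factors, from 53.3, 79.0 and 84.2 CPM to 150, 150 and 162, with WT B at 54.1 to 56.0. In all 4 the KO was above every wild-type library.

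Axon guidance genes held 3 that rose and 2 that fell of 58 tested, against 1.46% of all genes called. Netrin G2 (NTNG2) was at 10.2, 10.7 and 10.1 CPM in the KO, 2.30, 3.13 and 4.06 in WT A and 1.73 to 2.10 in WT B. DRAXIN, a netrin antagonist, was at 9.55, 9.46 and 10.5 CPM against 5.45, 3.54 and 4.76, and the ephrin receptor EPHB1 rose at under 1 CPM. SEMA3A, a repulsive semaphorin, fell from 7.69, 12.1 and 8.70 CPM in WT A to 2.32, 2.2 and 1.94, with WT B at 9.59 to 10.8. The second that fell was EPHA4.

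Of the matrix and adhesion genes 3 of 57 fell, against 0.662% of all genes, and none rose, with a median of 0.02. The list differed between the wild-type sets without any KO, with 7 genes called higher in WT A, none lower and a median of 0.45. With WT B as control, 9 genes of the list rose and 4 fell. TIMP3, an inhibitor of matrix metalloproteinases, fell from 6.24, 4.82 and 4.27 CPM in WT A to 1.18, 0.837 and 0.726, with WT B at 2.62 to 3.63. The protease ADAMTS16 was at 2.33, 2.28 and 2.22 CPM against 10.5, 6.36 and 6.82. The laminin chain LAMA4 was at 0.376, 0.328 and 0.401 CPM, with WT A at 0.811, 2.74 and 4.49. Of the mesenchymal list fibronectin (FN1) rose, from 27.1, 32.8 and 31.4 CPM to 63.9, 60.6 and 68.0, and CALD1 fell. No junction or cytoskeleton gene of the epithelial list was called among 26 tested.

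Single members of other lists were called, where 1.46% of all genes were, so the calls describe these genes and not their lists. The lists had 39 nuclear receptors, 36 NF-kappaB and chemokine genes, 63 interferon genes, 31 p53 targets and 44 ATF4 and ER stress genes tested. THRB, the thyroid hormone receptor beta, was the only one of 39 nuclear receptors called, at 2.07, 2.30 and 2.22 CPM against 11.5, 6.75 and 8.61 in WT A and 6.05 to 8.47 in WT B. The cytokine IL32 fell from 3.6, 1.81 and 3.46 CPM to 0.0536, 0 and 0, with WT B at 2.26 to 2.82. SAMD9, an antiviral interferon-stimulated gene, was at 13.4, 13.3 and 12.2 CPM against 31.9, 25.2 and 21.6, the only call among 63 interferon genes. The p53-induced lncRNA PURPL was at 1.51, 1.59 and 2.08 CPM, 6.48, 4.37 and 11.6 in WT A and 0.0800 to 0.961 in WT B, and VLDLR, an ATF4 target and lipoprotein receptor, at 2.42, 2.97 and 2.2 CPM, 0.943, 1.42 and 0.928 in WT A and 2.27 to 3.06 in WT B. The last 2 were called against WT A, while the KO lay above WT B for PURPL and overlapped it for VLDLR.

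Among the gene families, 3 of 426 tested ZNF genes fell and none rose, a share close to the 0.662% of all genes that fell. They were ZNF426, ZNF493 and ZNF280A. ZNF493 was at 1.65, 1.69 and 2.06 CPM against 6.73, 7.38 and 4.36, and ZNF280A at 0.118, 0.213 and 0.119 against 2.00, 1.69 and 1.19. Of 303 solute carriers 2 fell and 1 rose, also below 1.46%, and the glutamate transporter SLC1A3 was at 5.13, 6.66 and 7.64 CPM against 15.7, 16.4 and 16.5. Of 61 potassium channel genes 2 rose and 1 fell, KCNH8, against 1.46% of all genes called. KCNK9 and KCNV2 rose by 1.37 and 1.09 on the log2 scale, KCNV2 overlapping WT B. Antisense transcripts had 7 that rose and 3 that fell of 874 tested, and long intergenic RNAs 7 that rose and 1 that fell of 558, shares no higher than the 1.46% of all genes called. Of 70 glycosyltransferase genes, the mucin-type O-glycosylation enzyme GALNT9 rose, at 8.27, 9.99 and 6.88 CPM against 3.05, 2.07 and 2.97, while GALNT5 and GALNT14 fell by 1.38 and 1.04. The adhesion receptor ADGRF1 fell from 107, 114 and 66.0 CPM to 22.4, 23.6 and 22, with WT B at 56.7 to 59.8. CYP4F11, a fatty acid hydroxylase, rose from 3.83, 6.61 and 7.47 CPM to 22.5, 19.8 and 26.2, but WT B was at 15.7 to 17.8. ARHGEF11, a guanine nucleotide exchange factor, was at 34.9, 38.3 and 24.6 CPM between WT A, at 10.3, 11.9 and 10.3, and WT B, at 116 to 123.

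At lower levels or with smaller changes, the tetraspanin TSPAN2, the tight-junction gene CLDN18, the protease inhibitor SERPINA5 and the forkhead gene FOXR1 rose. HOXC5 and the cancer-testis gene MAGEB1 fell. Each was the only member of its family called and is described as a single gene. SERPINA5 was at 9.28, 9.14 and 9.64 CPM against 5.26, 3.23 and 4.96, and CLDN18 at 5.20, 4.25 and 4.83 against 1.72, 2.80 and 1.97. FOXR1 stayed below 0.215 CPM or at it in every library and MAGEB1 below 0.717 or at it, so their folds are poorly set. HOXC5 in the KO overlapped WT B.

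Other programs gave no call. They included Notch signalling (21 tested), hypoxia and glycolysis (46 tested), cholesterol synthesis and uptake (40), heat shock (20), NRF2 detoxification (28), the epithelial state (40), intestinal lineage genes (41), mitochondrial respiration (61), chromatin regulators (38), imprinted genes (32), cytosolic ribosomal proteins (82), snoRNAs (151) and clustered protocadherins (31). The cholesterol list had a median of -0.44, and in 34 of its 40 genes the value was below 0, but the WT A libraries disagreed. HMGCS1, the first committed enzyme of the mevalonate pathway, was at 49.2, 47.2 and 48.8 CPM in the KO and 52.9, 201 and 84.3 in WT A. ATF4 targets had a median of -0.26 against WT A, while WT A exceeded WT B by a median of 0.97 with 9 of 24 genes called higher.

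Several genes that were not called had widely spread WT A libraries. DKK1, a secreted Wnt antagonist near one stated deletion, was at 124, 125 and 134 CPM in the KO and 12.8, 103 and 154 in WT A, and its log2(fold change) of 0.52 did not pass. FUT1, a fucosyltransferase of the H antigen, was at 29.3, 23.4 and 28.1 CPM in the KO, 0.735, 3.46 and 12.8 in WT A and 25.2 to 28.1 in WT B. FOS was at 121, 119 and 118 CPM in the KO, 9.99, 67.0 and 160 in WT A and 11.5 to 13.8 in WT B, and JUN at 22.5, 21.4 and 24.8 CPM, 103, 32.6 and 54.9 in WT A and 17.2 to 19.9 in WT B. None of the 4 was called. Of the other genes near the stated deletions, NES, BCAN, HAPLN2 and LNCAROD were not called, with log2(fold change) of 0.54, -0.06, 0.66 and 0.04.

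**Figure D5:**
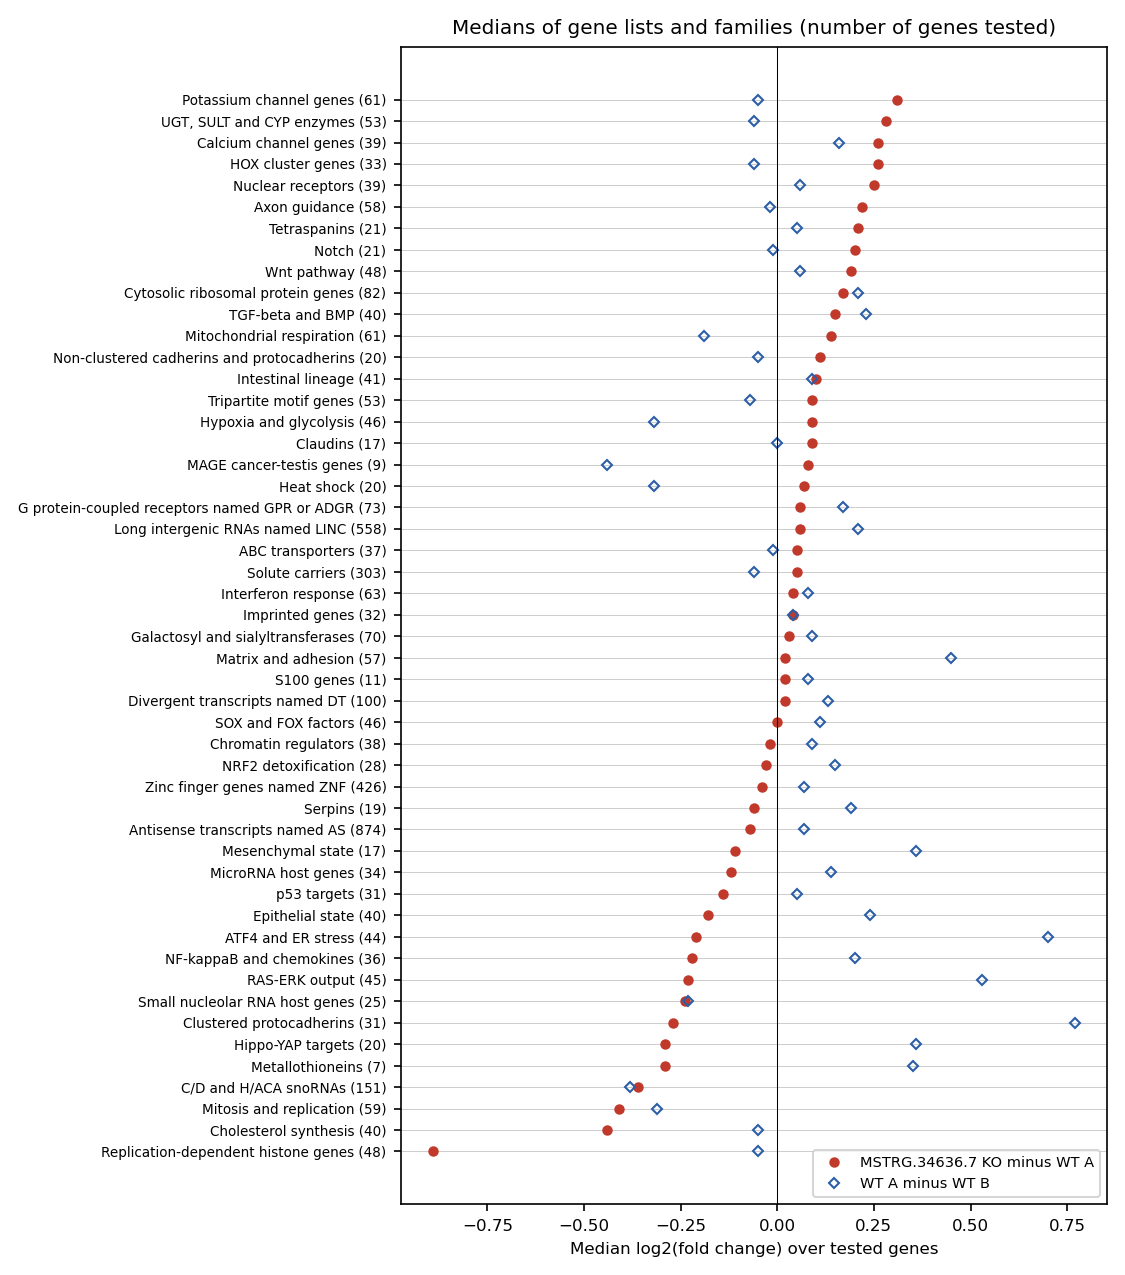
Median log2(fold change) of the plotted gene lists and families over their tested genes (number in parentheses), for KO minus WT A (filled) and for WT A minus WT B (open), which share the WT A libraries. The histone genes have the lowest KO median, -0.89, with -0.05 between the wild-type sets, whereas RAS-ERK, ATF4 and protocadherin lists have their larger value between the wild-type sets.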

How the data were processed

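The 24 libraries of A549 and HCT116 form 8 groups of 3, of which 9 HCT116 libraries are reported here. Per the labels, total RNA was depleted of ribosomal RNA and sequenced from a directional kit. The authors trimmed reads with Trim Galore 0.6.6, checked them with FastQC 0.11.9, aligned them to hg38 with HISAT2 2.2.1 (versions from the submitters' processing notes), used StringTie for gene quantification, and the deposited values are raw whole-number counts for each symbol, not pooled. The annotation, the strand setting and the step to whole counts are not given in the sources used here.

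Each comparison was fitted to these deposited counts with edgeR 4.0.16 (limma 3.58.1, R 4.3.3) on all 60641 shared symbols, with TMM, filterByExpr, glmQLFit and glmQLFTest and Benjamini-Hochberg adjustment. The 3 symbols listed only for libraries 1A to 3A were left out. Calls needed FDR < 0.1 together with |log2(fold change)| > 1, and the SE was derived from the F statistic. Positions came from GENCODE release 44 (GRCh38), which placed 38280 symbols (63.1%), 483 by an older symbol from RefSeq. Of 28816 genes tested, 385 were called, and the 20699 on autosomes or X are described, while 22252 of all symbols are clone names. Promoters came from RefSeq (GRCh38.p14). A count of 3 amounts to 0.0293 to 0.0611 CPM, depending on the library.

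The members, gene lists and families were chosen with earlier results of these data known. The rule named the 12 largest and 12 most negative changes among called genes whose average log2 CPM reached 1 and whose KO libraries did not overlap WT A, up to 4 called members of each list or family with the smallest p (or the member with the smallest p), and the genes near the stated deletions, while genes said to be noticed or chosen after their values were seen, among them H1-2, H2BC12, STXBP6, FGF14, USP24, OMA1, MROH7 and CA11, were not named by it. Genes of chromosome Y, clone names and a few genes not reported here were left out, as were, for brevity, some named members of uncalled lists and of lncRNA families. Replicate counts were compared by chi-square, and every pair differed by more than sampling noise. The fit was tested on simulated data with less spread between libraries than these data (common dispersion 0.0893), which checked the code and not the calls. The alternatives tried were edgeR's exact test, DESeq2 1.42.0, other scalings, filters, thresholds, controls and fits, and each library left out.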

Additional observations from a re-analysis of the deposited data

How the results depend on the processing

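The number of genes called moved with the test, the control and the libraries. It was 302 as reported, 305 with RLE size factors, 264 with upper-quartile scaling, 239 with no filter and 299 with at least 10 counts in every library. It was 627 with DESeq2, 667 with edgeR's exact test, 122 at FDR < 0.05, 528 with no fold-change threshold, 2905 with WT B as control, 599 with both wild-type sets pooled and 612 with 4 HCT116 groups in 1 fit. It ranged from 61 to 564 with 1 library left out. Between WT A and WT B, 1430 genes were called, 2743 with no fold-change threshold and 1180 to 1635 with 1 library left out. Upper-quartile scaling shifted the balance, with 136 of 264 higher in the KO against 165 of 302.

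The deviations of same-numbered KO and WT A libraries correlated at -0.02, 0.02 and 0.08. This cannot exclude that they were processed together, since the KO libraries differed little from each other (median SD 0.0833). The labels do not say, and the main fit had no replicate block. With the replicate block 138 genes were called.

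Histone genes called lower numbered 10 to 21 under the other settings and 1 to 15 with 1 library left out, counts chosen after seeing the data. With WT B as control the sign turned for APOOL (-2.03), RBM14 (-2.93), HBE1 (-2.68), ARHGEF11 (-1.89), DUSP5 (0.29), CCN1 (0.38), PURPL (1.95) and VLDLR (-0.08). With both sets pooled it turned for APOOL (-1.05), RBM14 (-1.95), HBE1 (-1.70) and ARHGEF11 (-1.01). The cause was not tested. Depth limits genes near 1 CPM or less, such as the PSG genes.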
